A study of Mus musculus with 20 samples.

Results

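Vehicle-treated MC38 tumours are described here as they stood without the tested treatment: which RNAs they carried, and which RNAs varied together from one tumour library to the next. All 10 libraries titled Control were taken, out of 20 in the series, and no value of the other 10 libraries was used. MC38 is a mouse colon adenocarcinoma line, grown here as a subcutaneous tumour, and whole tumour tissue was profiled, so the RNA of host cells was measured with that of the tumour cells. The Control group received vehicle in a study of ATBx given around the tumour, and its title concerns microbial burden and interferon signalling. The labels give the line, the tissue, the treatment group and a replicate number from 1 to 10. The vehicle, the schedule, the tumour's age and the strain, sex and age of the mice were not given in the sources used here. Nor do the labels tie each library to a separate mouse, and the p-values below therefore reflect only how these 10 samples vary, part of which may be technical.

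A subcutaneous tumour is a mixture. Cancer cells divide among fibroblasts that lay down collagen, endothelial cells that form vessels, and macrophages, lymphocytes and neutrophils that enter from the blood, while the edge of the dissected tissue can carry skin, fat, muscle or gland. Interferon gamma, made by T and NK cells, acts on many cell types and switches on chemokines such as Cxcl9, guanylate-binding proteins, immunity-related GTPases and antigen presentation, whereas type I interferons switch on genes such as Ifit1 and Mx2. In bulk tissue, fewer cells of a type and less RNA per cell cannot be told apart, and this holds for every cell type gene below. Levels are given in FPKM, by definition fragments scaled by gene length and by the mapped total, which allows levels of different genes to be set beside each other. Whether these values were scaled further between libraries was not given. Differences were computed on log2(FPKM + 1).

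The table listed 15527 to 16345 rows above 0 in a library, and read totals are unknown. A relative depth, read from the spacing of low values, ran from 0.780 to 1.24. Upper quartiles lay within 1.05-fold of each other, while the summed FPKM ran from 556770 to 752782. Rpph1 and Rmrp, the RNA parts of RNase P and RNase MRP, took 7.75% to 20.5% of the summed FPKM. Control 1 stood apart: it had the highest summed FPKM, the highest Rpph1 and Rmrp share and the highest mean of 82 ribosomal protein genes, and it was the library farthest from the gene's median for 4878 of 12826 rows. Control 3 was the farthest for 2972 rows, and no other library for more than 1072. Many results that rest on Control 1 or Control 3 are given with and without them. Where no such value is given, a result may still depend on these libraries.

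At baseline, 11300 of the 23402 rows lay above 1 FPKM in all 10 libraries, 6290 above 10, 682 above 100 and 53 above 1000. A further 5353 rows were listed at 0 in all 10. Of all protein-coding genes, B2m had the highest mean, at 4976 ± 594 FPKM (SD, n = 10). B2m is the shared light chain of MHC class I molecules, and its level ran from 3807 in Control 3 to 5516 in Control 1. The elongation factor gene Eef1a1 followed at 4775 ± 430.5, the actin gene Actb at 4706 ± 164 and Lgals1, which encodes the lectin galectin-1, at 3898 ± 403. Actb was the steadiest of the 15 most abundant protein-coding genes and spanned 1.14-fold. Of these 15 genes, 6 encode ribosomal proteins, led by Rps12 at 3119 ± 539.6. Vim, the intermediate filament of mesenchymal cells, stood at 2113 ± 137, and Col3a1, a fibrillar collagen of connective tissue, at 1995 ± 250.4.

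RNAs without a poly(A) tail headed the table, and the library kit was one for total RNA. Rpph1 had a mean of 40834 ± 18678 FPKM and Rmrp 34450 ± 13218, each above every protein-coding gene. The small nucleolar RNA Snora74a reached 4906 ± 2063, Snord15b 2925 ± 516 and Snord22 2627 ± 1080, and the nuclear RNA Malat1 1189 ± 269. The 23 rows named here by rule, 15 protein-coding and 8 other, held 22.2% of the summed FPKM. For such short RNAs a per-kilobase value magnifies each fragment, so their levels are not a share of molecules.

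Mesenchymal and cell division genes were well expressed, and colonic genes were mostly near 0. All 14 genes of a mesenchymal list lay above 1 FPKM in every library, among them Sparc, a matrix-binding glycoprotein, at 836 ± 53.9 FPKM, Fn1, which encodes fibronectin, at 345 ± 87.7, and the transcription factor genes Zeb1 at 39.7 ± 4.51 and Twist1 at 11.5 ± 1.06. Of 22 genes for epithelial and colonic identity, 1 passed 1 FPKM in all 10 libraries. That gene was Cdh1, E-cadherin, at 3.27 ± 0.847. The intestinal transcription factor Cdx2 and the fatty acid-binding protein Fabp1 were listed at 0 in all 10 libraries, and Cdx1 (highest 0.0565), the goblet cell mucin Muc2 (highest 0.0145), the brush border protein Vil1 (highest 0.120) and Krt20 (highest 0.319) were near 0. All 20 mitosis and all 20 DNA replication genes were above 1 FPKM throughout, with medians of member means of 40.6 and 34.3 FPKM. The cancer genes Trp53 and Myc were steady at 46.9 ± 2.98 and 32.4 ± 1.90 FPKM.

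Against the label of cancer cells as the cell type, genes of several host cell types were present in every library. Ptprc, the CD45 antigen of leukocytes, stood at 44.6 ± 7.61 FPKM. Macrophage genes were abundant: Apoe, an apolipoprotein, reached 1260 ± 110.4, Lyz2, a lysozyme, 1048 ± 232, the complement gene C1qa 559 ± 69.2 and Csf1r, the receptor that macrophages need for survival, 79.0 ± 8.97. T cell genes were lower, with Cd8a at 4.80 ± 2.10, Cd3e at 2.59 ± 1.05, Cd4 at 2.73 ± 0.463 and the regulatory T cell factor Foxp3 at 0.444 ± 0.141. The cytotoxic granule genes Gzmc and Gzmb stood at 124 ± 52.3 and 26.7 ± 10.6. Most B cell genes with a row were near 0, with a median of member means of 0.0645 FPKM over 10 genes and Ms4a1 (CD20) at 0.0823 ± 0.0690. The highest member mean was 2.37 FPKM, and 1 gene lay above 1 FPKM in all 10 libraries. Ighm and Igkc, the other 2 of the 12 listed, had no row, so their RNA was not seen. Xist, the RNA that coats an inactive X chromosome, ran from 5.29 to 12 FPKM, and the Y-linked gene Ddx3y was listed at 0 in 9 libraries and at 0.0492 in Control 9.

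**Figure D1:**
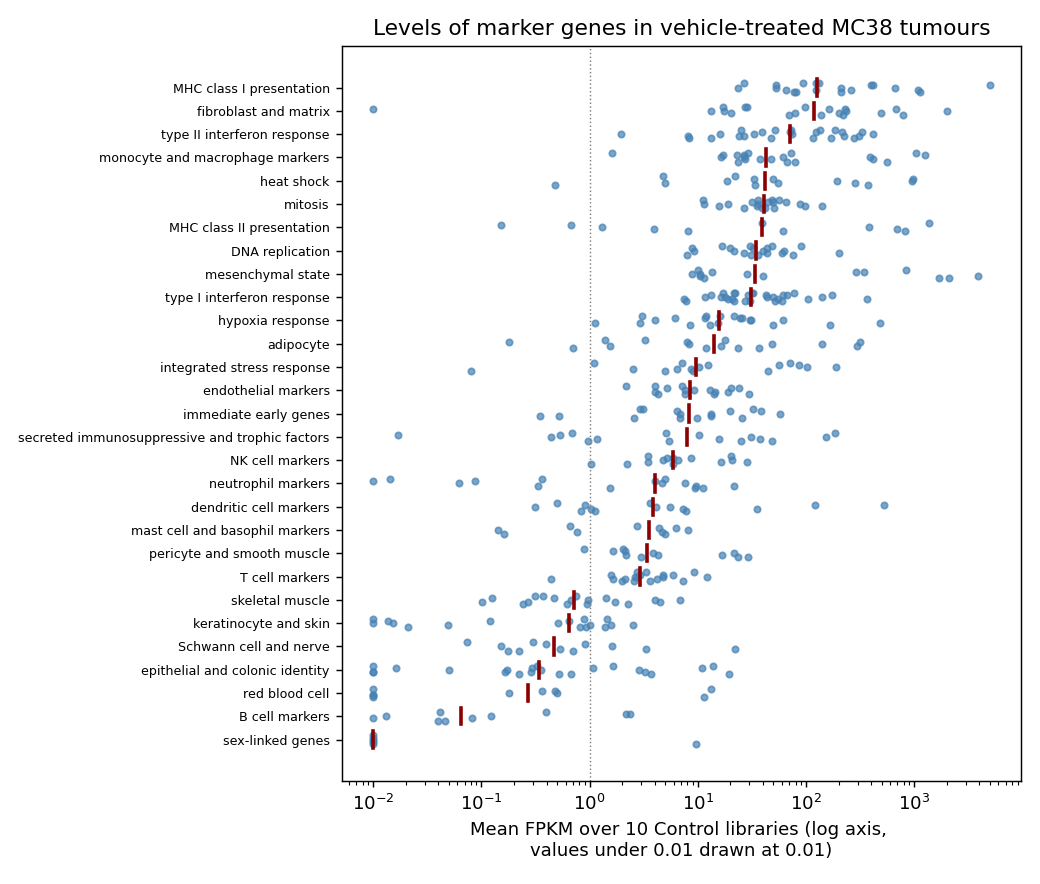
Mean FPKM over the 10 Control libraries (log axis) of the members of each gene list, 1 point per gene, with a red bar at the list's median; the vertical position within a row only separates points. MHC class I presentation genes have the highest median (126.5 FPKM), and the median of B cell genes (0.0645 FPKM) and most of the 6 sex-linked genes lie near 0.

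Most genes differed little between libraries. The SD of log2(FPKM + 1) had a median of 0.14 over the 12826 rows with a mean of at least 0.5 FPKM, and of 7078 rows with a mean of at least 10, 411 (5.81%) spanned more than 2-fold. The 20 rows with the largest SD were all small RNAs, 16 of them small nucleolar RNAs, and 19 of the 20 were listed at 0 in some library, where a 0 can be a failed estimate. Snord49b, for example, was listed at 0 in 5 libraries and at 647 FPKM in Control 3. Among protein-coding genes, the largest SDs belonged to fat. In a set of 20 chosen after the values were seen, Thrsp, a regulator of fatty acid synthesis, spanned 0.253 to 126 FPKM and Cfd, the complement factor adipsin secreted by adipocytes, 10.1 to 1413. At the other end, the ubiquitin ligase gene Rnf168 spanned 12.6 to 13.3 FPKM and Gnai2, a G protein subunit, 181 to 193.

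Principal components of the 12826 rows put 36.5% of the variance on the first axis and 14.2% on the second. Control 3 (37.1) and Control 1 (21.7) lay at one end of the first axis and Control 8 (-21.6) at the other, and the second axis set Control 1 (28.8) apart from the other 9 libraries (-14.7 to 8.23). Among the 500 rows with the largest SD, 7 groups of at least 10 rows clustered by correlation and took in 369 rows. The largest held 247 rows (49.4%) and was led by Cd36, Lipe and Slc1a3. It was highest in Control 3 and lowest in Control 8, and it held 14 of the 16 adipocyte genes and 7 of the 22 epithelial ones. The second, of 40 rows, was led by the interferon-responsive genes Gbp4, Tgtp1 and Cxcl10 and was lowest in Controls 3 and 2. Smaller groups followed Cxcl2 and S100a8 (23 rows), Gzmc and Xcl1 (20 rows), small nucleolar RNAs and histones (19 rows), muscle troponins (10 rows), and F10, Cxcl5, Saa3 and Arg1 (10 rows). These groups were formed from the values themselves and carry no test.

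To ask which genes follow a given cell type or pathway across the tumours, each row was regressed on the level of 1 index gene in turn, 12 index genes in all, over the 10 libraries. The slope is the change in log2(FPKM + 1) per SD of the index gene's log2 level, and calls were made in limma at a Benjamini-Hochberg adjusted p under 0.05 over all rows. A further fit, on Adipoq, was added after its values were seen. All fits share the same 10 libraries.

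Among protein-coding genes, those of adipocytes differed most between the tumours. Adipoq (chromosome 16, 23146536 to 23157968), which encodes the fat cell hormone adiponectin, ran from 1.17 FPKM in Control 8 to 154 in Control 3, with a median of 22.2. Control 1 followed Control 3 at 55.0, Control 6 stood at 50.2 and Control 9 at 45.8, and Controls 5, 7, 8 and 10 were all below 10. Cfd spanned 139.9-fold, from 10.1 to 1413, Car3, a muscle and fat carbonic anhydrase, 90.1-fold, from 6.96 to 628, and Retn, the hormone resistin, 187-fold, from 1.19 to 222. The summed level of the 16 adipocyte genes ran from 82.4 to 3951 FPKM, and none of them was listed at 0 in all 10 libraries.

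With Adipoq as the index, 378 rows were called with a positive slope, 2.95% of those tested, and 55 with a negative slope (0.429%), 3.38% together. All 14 other adipocyte genes that passed the filter were called positive, with a median r of 0.97 and the lowest at 0.80. Cfd had a slope of 2.14 ± 0.05 (SE, adjusted p = 6.54e-11) and Plin1, the coat protein of lipid droplets, 1.49 ± 0.07 (adjusted p = 1.51e-07). Without the ends of the Adipoq range, Controls 8 and 3, the adipocyte genes kept a median r of 0.98 over the remaining 8 libraries, and 128 rows were called. Without Controls 1 and 3 the count was 112, all with a positive slope. As Adipoq was chosen because the adipocyte genes varied most, these counts describe how far that variation reaches and are not independent evidence of it.

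Simple epithelial keratins varied in step with fat. Krt8 and Krt18, the paired keratins of simple epithelia, ran from 0.125 and 0.335 FPKM in Control 8 to 44.8 and 53.7 in Control 3, with medians of 7.50 and 9.07. Krt19, a keratin of ducts, ran from 0.428 to 64.6 and Epcam, an epithelial adhesion molecule, from 0.297 to 10.6 in the same libraries. Control 9 was the second highest for Krt8, Krt18 and Krt19, at 20.7, 25.9 and 38.0, and Controls 5, 7, 8 and 10 were the 4 lowest for all 3. Of the 10 epithelial and colonic genes tested, 8 were called positive with Adipoq, with a median r of 0.96 over the 10. Krt19 had a slope of 1.70 ± 0.10 (adjusted p = 2.59e-06) and Epcam 0.99 ± 0.08 (adjusted p = 1.10e-05), and without Controls 8 and 3 their r was 0.96 and 0.94. Cdh1 was not among the 8, and its range across the libraries was 2.242 to 4.598. The epithelial genes thus differed up to 358-fold, for Krt8, while Vim spanned 1.25-fold.

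Genes of mammary epithelium, a list added after these values were seen, were high in the same libraries. Prlr, the prolactin receptor, ran from 0.170 FPKM in Control 8 to 13.8 in Control 3, Areg, the growth factor amphiregulin, from 0.151 to 20.4, and Csn3, a milk casein, from 0.216 to 8.63. Their slopes on Adipoq were 1.11 ± 0.09, 1.28 ± 0.15 and 0.89 ± 0.11 (adjusted p = 1.53e-05, 8.18e-04 and 7.35e-04). Ltf, lactoferrin, which neutrophils and mammary epithelium both make, had a slope of 1.16 ± 0.13 (adjusted p = 7.35e-04) and was highest in Control 9 at 11.5. Both Adipoq and this list were chosen after the values were seen. These p-values therefore describe a shared pattern and are not independent evidence of it. The milk genes Csn2, Csn1s1 and Wap were listed at 0 in all 10 libraries. Whether fat, gland or another tissue at the edge of the tumour entered the libraries was not tested.

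**Figure D2:**
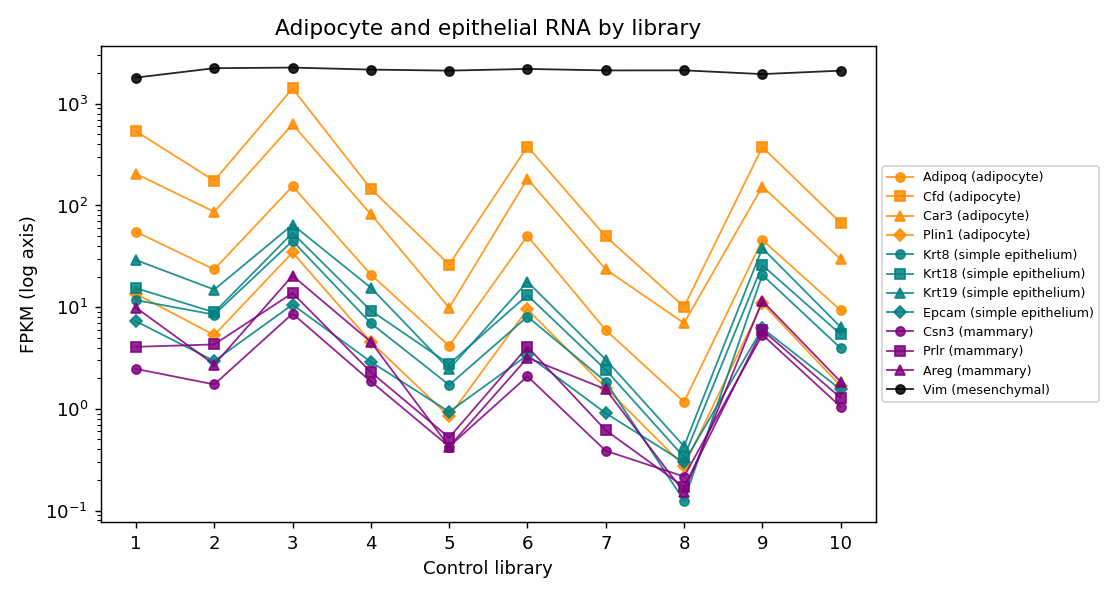
FPKM (log axis) of adipocyte, simple epithelial and mammary genes, with Vim for comparison, in each of the 10 Control libraries; lines only join the points of a gene, since the libraries have no order. Adipoq (1.17 to 154 FPKM) and Krt8 (0.125 to 44.8) reach their highest points in Control 3 and their lowest in Control 8, while Vim spans 1.25-fold.

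Other genes called with Adipoq included myoepithelial and interferon-responsive ones. Ly6d, a surface antigen, had a slope of 1.35 ± 0.08 (adjusted p = 1.26e-06). The keratins Krt14 and Krt17 and the smooth muscle protein Cnn1 were called positive with slopes of 0.66, 0.44 and 0.52, and Cd163, a scavenger receptor of tissue macrophages, with 0.42. In the negative direction, 10 of 30 type I interferon-responsive genes were called and 0 of 30 in the positive, with a median r of -0.76 over the 30. Ifit1, an inhibitor of viral RNA translation, had a slope of -0.35 ± 0.08 (adjusted p = 0.0309) and Mx2, an antiviral GTPase, -0.41 ± 0.09 (adjusted p = 0.0353). Without Control 3 no negative call was left among all rows tested, although the median r of the 30 genes was -0.72 without Controls 8 and 3. An inverse relation to Adipoq was not particular to type I genes. The median r was -0.67 for 26 interferon gamma-responsive genes (1 called negative), -0.55 for 20 MHC class I genes and -0.50 for 14 NK cell genes (0 called negative in each). Without Controls 8 and 3 these medians were -0.54, -0.38 and -0.26. For 20 monocyte and macrophage genes the median r over all libraries was -0.22.

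Interferon gamma-responsive genes formed a second pattern, carried by 2 libraries, which is not the second principal axis. Cxcl9 (chromosome 5, 92321331 to 92328079), a chemokine that draws T cells, stood at 50.5 FPKM in Control 2 and 53.6 in Control 3 and from 109 to 152 in the other 8 libraries. Ubd, which encodes a ubiquitin-like modifier, showed the same gap, with 27.3 and 25.5 against 61.9 to 84.2. Ifng itself, the interferon gamma gene, stood at 0.765 and 1.02 against 2.29 to 5.21. Cxcl10, a second chemokine of this family, stood at 171 and 153 against 263 to 420, and Cd274, the checkpoint ligand PD-L1, at 8.50 and 9.55 against 13.4 to 22.1. In each of these 5 genes the highest of Controls 2 and 3 lay below the lowest of the others.

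With Cxcl9 as the index, 180 rows were called with a positive slope, 1.40% of those tested, and 6 with a negative slope (0.0468%), 1.45% together. Of 25 other interferon gamma-responsive genes, 20 were called positive, with a median r of 0.90 over the 25 against -0.0055 over all rows. Ubd had the smallest p, with a slope of 0.57 ± 0.04 (adjusted p = 6.52e-05), followed by AA467197 (0.45 ± 0.04), Tgtp1 (0.59 ± 0.05), the guanylate-binding protein gene Gbp8 (0.46 ± 0.04) and the protease inhibitor gene Serpina3f (0.49 ± 0.05). Antigen presentation was in the same set: 10 of 20 MHC class I genes and 7 of 10 MHC class II genes were called positive, including Ciita, the master activator of class II genes, with 0.32 ± 0.04, H2-Aa with 0.33 ± 0.05, H2-K1 with 0.18 ± 0.03 and Tap1, a peptide transporter, with 0.24 ± 0.04. Lymphocyte genes were also called. Ifng (0.51 ± 0.06) and Gzmb (0.54 ± 0.09) were among them, as were 4 of 14 NK cell genes, with Prf1, the pore-forming protein perforin, at 0.41 ± 0.06. Of 18 T cell genes 2 were called, Ifng and Prf1, and of 30 type I interferon-responsive genes 9, with median r of 0.51 and 0.79. Cd3e and Cd8a were not called. The lists overlap, so these counts are not of separate genes. Psmb8 and Psmb9 count among both the interferon gamma and the class I calls, Ciita among the interferon gamma and class II calls, and Prf1 among the NK and T cell calls.

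These calls rested on Controls 2 and 3. Without both, 0 rows were called (limma, 389 at an unadjusted p under 0.05). Over the 8 other libraries, the r with Cxcl9 was 0.72 for Ubd, 0.79 for Tgtp1, 0.80 for Ifng and 0.78 for Cxcl10, while it was 0.38 for H2-Aa and 0.49 for H2-K1. The median r of the interferon gamma-responsive genes was 0.67 over these 8, that of MHC class II genes 0.39 and that of T cell genes -0.12. Without Control 3 alone 60 rows were called, and without Control 2 alone 585, of which 338 had a negative slope. With the share of Rpph1 and Rmrp as a further term there were 300 positive and 65 negative calls, and with Adipoq as a further term 61 calls in all. Control 3 is also the library with the most adipocyte RNA, Control 2 was not (Adipoq 23.5 FPKM), and the part of adipose RNA in the low Cxcl9 of Control 3 was not tested.

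Promoters of genes called with Cxcl9 are printed to show where interferon response motifs sit in them. Sequences are from RefSeq (GRCm38.p6) and run from 250 bases before to 50 after the gene's start, 5′ to 3′ on the gene's strand, which is the minus strand for all 5. Capitals mark matches to the interferon-stimulated response element core (GAAA, any 2 bases, GAAA) or the gamma activated site, TTCNNNGAA, on either strand. Shown are Cxcl9 itself (chr5:92328030-92328329) and the 4 called genes with the smallest p whose promoter held the first motif: Tgtp1 (chr11:48992197-48992496), Tgtp2 (chr11:49064163-49064462), Cxcl10 (chr5:92348840-92349139) and Slamf8 (chr1:172590519-172590818).
Cxcl9: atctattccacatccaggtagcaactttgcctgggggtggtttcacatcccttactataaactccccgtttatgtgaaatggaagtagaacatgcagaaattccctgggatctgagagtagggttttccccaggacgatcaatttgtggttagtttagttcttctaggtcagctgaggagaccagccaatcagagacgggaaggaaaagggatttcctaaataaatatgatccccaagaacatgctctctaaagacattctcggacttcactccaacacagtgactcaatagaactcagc
Tgtp1: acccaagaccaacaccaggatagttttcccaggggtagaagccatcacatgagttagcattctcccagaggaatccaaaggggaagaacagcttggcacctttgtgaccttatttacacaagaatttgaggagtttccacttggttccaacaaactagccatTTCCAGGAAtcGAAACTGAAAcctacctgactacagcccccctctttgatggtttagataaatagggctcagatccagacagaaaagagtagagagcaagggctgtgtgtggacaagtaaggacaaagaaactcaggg
Tgtp2: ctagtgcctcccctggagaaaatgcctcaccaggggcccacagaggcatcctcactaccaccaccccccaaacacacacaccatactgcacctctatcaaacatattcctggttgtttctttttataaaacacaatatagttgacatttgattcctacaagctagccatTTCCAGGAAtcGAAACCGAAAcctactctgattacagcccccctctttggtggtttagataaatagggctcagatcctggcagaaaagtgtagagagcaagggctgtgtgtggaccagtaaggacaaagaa
Cxcl10: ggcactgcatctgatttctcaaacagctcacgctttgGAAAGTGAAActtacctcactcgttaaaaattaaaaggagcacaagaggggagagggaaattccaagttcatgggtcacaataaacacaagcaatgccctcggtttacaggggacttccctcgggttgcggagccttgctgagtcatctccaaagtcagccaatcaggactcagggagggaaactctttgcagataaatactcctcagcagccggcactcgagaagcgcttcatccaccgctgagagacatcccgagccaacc
Slamf8: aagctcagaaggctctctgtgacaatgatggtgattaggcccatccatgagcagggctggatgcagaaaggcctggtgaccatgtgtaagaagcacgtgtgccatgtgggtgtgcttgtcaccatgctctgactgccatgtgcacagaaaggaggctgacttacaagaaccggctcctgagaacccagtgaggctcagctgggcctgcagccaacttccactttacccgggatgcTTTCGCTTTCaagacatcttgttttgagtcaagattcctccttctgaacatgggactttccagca

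In Tgtp1 and Tgtp2, which encode near-identical GTPases and may share reads, the 2 motifs lie next to each other, with the response element at -77 and -70 from the transcription start and the activated site at -88 and -81. In Cxcl10 the element starts 213 bases before the start, and in Slamf8, a receptor of myeloid cells, 15 bases before it on the opposite strand. The Cxcl9 window held neither string of letters. The response element core was present in 34 of 137 promoters of genes called positive with Cxcl9 (24.8%), against 4.01% of the 10153 tested rows with a promoter and 3.44% of all 32851 promoters in the table. The activated site was in 18.2% of the 137, against 8.41% of tested rows. For genes called positive with Adipoq, the shares were 2.93% and 8.79% of 273. For those called positive with Csf1r, where the first was also above that of tested rows, they were 16.7% and 7.14% of 42. A CCAAT box stood in 35.8% of the 137 and in 43.4% of tested rows, and the TATA box letters TATAAA in 18.2% and 9.24%. A match describes letters and not a bound site.

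**Figure D3:**
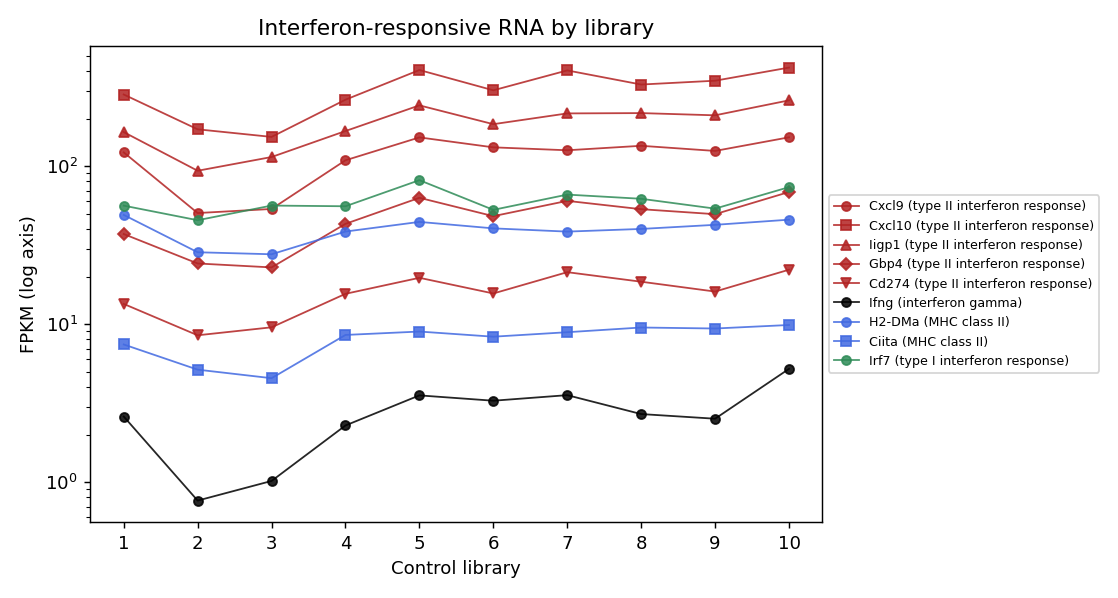
FPKM (log axis) of interferon-responsive and MHC class II genes and of Ifng in each of the 10 Control libraries; lines only join the points of a gene, since the libraries have no order. Controls 2 and 3 lie below the other 8 libraries for Cxcl9 (50.5 and 53.6 against 109 to 152 FPKM), Cxcl10, Gbp4, Iigp1, Cd274, Ciita, H2-DMa and Ifng. Irf7 is also lowest in Control 2, while its 56.3 in Control 3 lies inside the range of the remaining libraries, Control 2 included.

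Irf7, the transcription factor that amplifies type I interferon responses, was used as a second interferon index and gave 0 calls (0.00% of rows by limma, 740 at an unadjusted p under 0.05). Its level ran from 45.5 FPKM in Control 2 to 81.5 in Control 5. The 29 other type I genes all had r above 0 with it, with a median of 0.74. This was not particular to them: 25 of 26 interferon gamma-responsive genes had r above 0 with Irf7, with a median of 0.72. Ifnb1, the interferon beta gene, was at most 0.298 FPKM and was listed at 0 in 3 libraries. Without Controls 1 and 3 together, 21 rows were called with Irf7.

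The macrophage and T cell index genes gave fewer calls. Csf1r ran from 66.3 FPKM in Control 3 to 89.6 in Control 5, with Control 2 at 66.7. It called 52 rows positive (0.405%) and 5 negative (0.0390%), led by Dock10 (0.21 ± 0.02, adjusted p = 0.0185), Reg3g, an antimicrobial lectin of epithelia (0.37 ± 0.04), Nckap1l (0.19 ± 0.03), Hcls1 (0.23 ± 0.03) and Myo1f (0.18 ± 0.03), with Ptprc at 0.23 ± 0.03. Of 19 other monocyte and macrophage genes, 0 were called, with a median r of 0.33. The median r with Csf1r was higher for interferon gamma-responsive genes (0.74) and for T cell genes (0.68), with 0 called in either list. Without Controls 3 and 2 these medians were 0.23 and 0.39. The 57 calls fell to 0 without Controls 3 and 2 (limma, 1902 at an unadjusted p under 0.05), or with Adipoq as a further term (871), and ranged from 0 to 181 when 1 library was left out, with 0 without Control 2, without Control 5 and without Control 8. Cd3e, part of the T cell receptor complex, ran from 1.29 FPKM in Control 2 to 4.94 in Control 4, and Cd8a from 2.88 in Control 3 to 9.15 in Control 4. Controls 4 and 5 held the 2 highest values of both genes. No row was called with Cd3e (limma, 562 at an unadjusted p under 0.05). The nearest T cell gene was Cd8a, with r of 0.91 and an adjusted p of 0.113.

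A group of cytotoxic lymphocyte genes was low in Control 3. Gzmc, a granzyme of cytotoxic lymphocytes, was at 17.7 FPKM there and from 86.1 to 198 elsewhere. Xcl1, a chemokine made by NK and CD8 T cells, was at 9.57 against 22.1 to 50.4, and Ncr1, an NK cell receptor, at 2.40 against 4.22 to 9.86. All 3 lay in the same group of 20 covarying rows, with Klrd1 and Klre1, NK receptors, and 2 mast cell protease genes, Mcpt1 and Mcpt2. Reads of the granzyme cluster can be shared between near-identical genes.

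Neutrophil genes split the libraries another way. S100a8 and S100a9, the calcium-binding proteins that fill neutrophil cytoplasm, were high in Control 10 (28.2 and 35.2 FPKM), Control 9 (20.6 and 18.6), Control 1 (18.7 and 17.2) and Control 5 (11.1 and 12.9), and at 4.71 or lower in the other 6 libraries. With S100a8 as the index, 1 row was called (0.00780%). It was Cxcl3, a chemokine that attracts neutrophils, with a slope of 0.80 ± 0.09 (adjusted p = 0.0294). Cxcl3 ran from 0 in Control 8 to 4.07 in Control 9. Of 8 other neutrophil genes tested, 0 were called, with a median r of 0.68. The Cxcl3 call was kept in 8 of 20 alternatives, with adjusted p-values up to 0.305. Control 10 also held the highest values of a group of myeloid and acute-phase genes: the arginine-degrading enzyme Arg1 at 187 FPKM against 34.98 to 86.1 elsewhere, the nitric oxide synthase Nos2 at 10.6 against 1.20 to 4.17, the acute-phase protein Saa3 at 226 against 35.1 to 106.5, and the neutrophil chemokine Cxcl5 at 5.49 against 0.067 to 1.92.

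Muscle RNA was a trait of single libraries. Ckm, the creatine kinase of muscle, was at 5.96 FPKM in Control 10 and 1.91 in Control 8, and at 0.524 or lower in the others. Acta1, skeletal muscle actin, was at 34.1 and 7.23 in these libraries and at 1.16 or lower elsewhere. With Ckm as the index, 10 rows were called, all positive (0.0780%): 9 of 10 other muscle genes tested, Acta1 and the fast myosin heavy chain gene Myh4 among them, and Krtdap, a skin differentiation gene. Ckm passed the filter only through Control 10, without which no fit was made, so these calls restate the high levels of 1 or 2 libraries and support nothing further. The summed level of the 18 muscle genes ran from 8.65 to 128 FPKM.

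Krt5, a keratin of basal and myoepithelial cells, ran from 0.102 FPKM in Control 7 to 3.14 in Control 3 and called 25 rows, all positive (0.195%). The called genes included its partner Krt14 (0.71 ± 0.07, adjusted p = 0.00264), Krt17 (0.46 ± 0.06), the mucus protein Fcgbp (0.88 ± 0.10), Clca2 (0.58 ± 0.07) and 3 of 12 smooth muscle genes, Cnn1, Acta2 and Actg2. Of 9 other keratinocyte and skin genes tested, 4 were called, and Sbsn, a gene of outer skin, was listed at 0 in all 10 libraries. None of the 25 calls was left (limma) with Adipoq as a further term (335 rows at an unadjusted p under 0.05), without Controls 7 and 8, the libraries farthest from the Krt5 median (718), or without Controls 1 and 3 (636), although over the 8 libraries other than 7 and 8 the r of Krt14 was 0.95. When 1 library was left out the count ran from 4, without Control 3, to 141, without Control 6.

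Of the index genes, the proliferation gene Mki67 gave the most calls, and these rested on Control 1. Mki67 (chromosome 7, 135689784 to 135716450), the Ki-67 antigen of cycling cells, was at 27.7 FPKM in Control 1 and from 46.1 to 58.6 in the other 9 libraries. It called 1378 rows positive (10.7%) and 1230 negative (9.59%), 20.3% together. The positive calls were led by long genes, such as the nuclear pore gene Tpr (0.26 ± 0.02, adjusted p = 4.94e-04), the spindle gene Aspm (0.22 ± 0.02) and the centromere gene Cenpf (0.30 ± 0.03), and the negative calls by Ndufb6, a subunit of respiratory complex I (-0.26 ± 0.02). Of 19 other mitosis genes 7 were called positive and of 20 DNA replication genes 2 positive and 1 negative. Positive calls among replication genes were no more frequent than the 10.7% over all rows. Proliferation genes did not all follow Mki67: r with Mki67 was above 0 for 11 of the 19 mitosis genes (lowest -0.68). It was above 0 for 10 of the 20 replication genes, with a median of 0.034. Among themselves these genes did covary. The median r between pairs was 0.41 within the mitosis list and 0.55 within the replication list, against -5.0e-04 over all tested rows. Without Control 1, 0 rows were called (limma, 726 at an unadjusted p under 0.05), and the median r of the mitosis genes with Mki67 went from 0.52 to 0.16. With the share of Rpph1 and Rmrp as a further term the split was 50 positive to 129 negative, and after scaling each library to 1 sum it was 6368 to 108. That scaling lowers every gene of Control 1 by 0.37 on the log2 scale relative to the median library, and moves no other library by more than 0.11.

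Control 1 differed from the other libraries by transcript length. The median transcript length was 2014 bases for rows called positive with Mki67 and 813 for rows called negative, against 1411 over all 12423 rows with a length. In Control 1 the shortest of 10 equal groups of genes (median 566 bases) lay 0.13 above the gene medians on the log2 scale and the longest group (median 4358 bases) 0.18 below. In the other 9 libraries no group deviated by more than 0.036. Across genes, which are not independent replicates, r between deviation and log length was -0.28 in Control 1 and between -0.12 and 0.12 in the others. Rps12 and Rpl41, 2 short ribosomal protein genes, were at 4595 and 5033 FPKM there against 2729 to 3216 and 2293 to 3150. The part of RNA quality or library preparation in this was not tested.

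**Figure D4:**
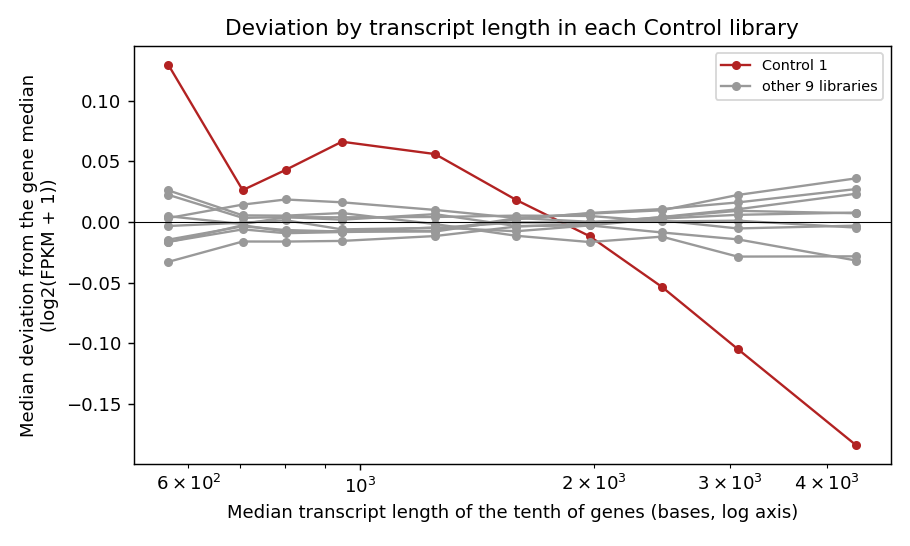
Median deviation from the gene median in log2(FPKM + 1), in 10 equal groups of genes by transcript length (log axis, bases), for each Control library. Control 1 (red) falls from 0.13 in the shortest group to -0.18 in the longest, while the other 9 libraries (grey) stay within 0.036 of 0.

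Rpph1 (chromosome 14, 50807447 to 50807771) ran from 18664 FPKM in Control 2 to 85189 in Control 1, with Control 3 next at 54151, and called 102 rows positive (0.795%) and 154 negative (1.20%). The positive calls were led by other untailed RNAs: Scarna6 (0.52 ± 0.05, adjusted p = 0.00152), Snora64 (0.66 ± 0.08) and Rmrp (0.41 ± 0.06), with the histone gene Hist4h4 (0.32 ± 0.05). Among negative calls were the matrix gene Col6a3 (-0.33 ± 0.05) and Top2a, a topoisomerase of dividing cells (-0.14 ± 0.03). These calls depended on most single libraries. Without Control 1, 0 rows were called (limma, 1108 at an unadjusted p under 0.05). There were 1, 2, 6, 2, 2 and 1 calls without Control 4, 5, 6, 8, 9 or 10, and 274, 618 and 2445 without Control 3, 7 or 2. Without robust and trended moderation 2 calls were left. With relative depth as a further term there were 15 positive calls and 1 negative, and after scaling to 1 sum 54 positive and 4747 negative. Scarna6 and Rmrp kept r of 0.90 with Rpph1 over the 8 libraries other than 1 and 2.

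Another 3 index genes called 0 rows (limma): Col1a1, the main collagen of fibroblasts (164 to 326 FPKM, 1619 rows at an unadjusted p under 0.05), Pecam1 of endothelium (25.1 to 34.0 FPKM, 424 rows) and the hypoxia-responsive gene Ndrg1 (39.0 to 68.3 FPKM, 2571 rows). All 15 other endothelial genes had r above 0 with Pecam1, with a median of 0.40, and 16 of 19 other hypoxia genes had r above 0 with Ndrg1, with a median of 0.73. The hypoxia genes were not alone in this: the median r with Ndrg1 was 0.73 for 11 skeletal muscle genes and 0.69 for 30 type I interferon-responsive genes. Without Controls 10 and 1, the median r with Ndrg1 was 0.51 for hypoxia genes, 0.47 for muscle genes and 0.63 for type I genes. Ndrg1 was highest in Control 10, at 68.3 FPKM, followed by Control 7 at 58.0, and the glucose transporter Slc2a1 (32.5 and 29.8) was highest in the same libraries. The median r of 18 other fibroblast and matrix genes with Col1a1 was 0.29, and 0.54 without Controls 3 and 1. Other lists lay farther from 0 over all libraries. The median r with Col1a1 was -0.78 for 14 NK cell genes, -0.69 for 10 MHC class II genes and -0.64 for 20 MHC class I genes, with 0 called. Without Controls 3 and 1 these medians were -0.53, -0.31 and -0.58. After scaling to 1 sum, 3333 rows were called with Pecam1 and 4106 with Ndrg1.

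Between the 12 index genes themselves, 66 pairs were compared and 0 passed after adjustment (two-sided permutation test, 6 at an unadjusted p under 0.05). By Pearson's r the closest pair was Cd3e and Csf1r, with Pearson's r of 0.79 (permutation p = 0.00337, adjusted p = 0.160) and Spearman's rho of 0.84 (permutation p = 0.00350, adjusted p = 0.115). Without Controls 4 and 5, the farthest from the Cd3e median, r was 0.78. By Spearman's rho the closest pair was Cxcl9 and Ckm, with rho of 0.89 (permutation p = 0.00101, adjusted p = 0.0667) and r of 0.50 (permutation p = 0.118, adjusted p = 0.623). The r of this pair was 0.67 without Controls 2 and 3, which leaves Control 10 in. Ckm passed the filter only through Control 10, and outside Controls 8 and 10 its ranks order low values, so this rho carries little weight. Cxcl9 and Csf1r had r of 0.77 (permutation p = 0.00625, adjusted p = 0.160) and rho of 0.65 (permutation p = 0.0491, adjusted p = 0.4665), and r was 0.22 without Controls 2 and 3, so the relation rests on these. Mki67 and Rpph1 had r of -0.79 (permutation p = 0.00726, adjusted p = 0.160) and rho of -0.79 (permutation p = 0.00878, adjusted p = 0.193), and r was -0.53 without Controls 1 and 8. In 12 pairs with Adipoq, 0 passed. The closest was with Krt5, with r of 0.79 (permutation p = 0.00743, adjusted p = 0.0892) and rho of 0.79 (permutation p = 0.00871, adjusted p = 0.0917), and r was 0.68 without Controls 8 and 3.

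**Figure D5:**
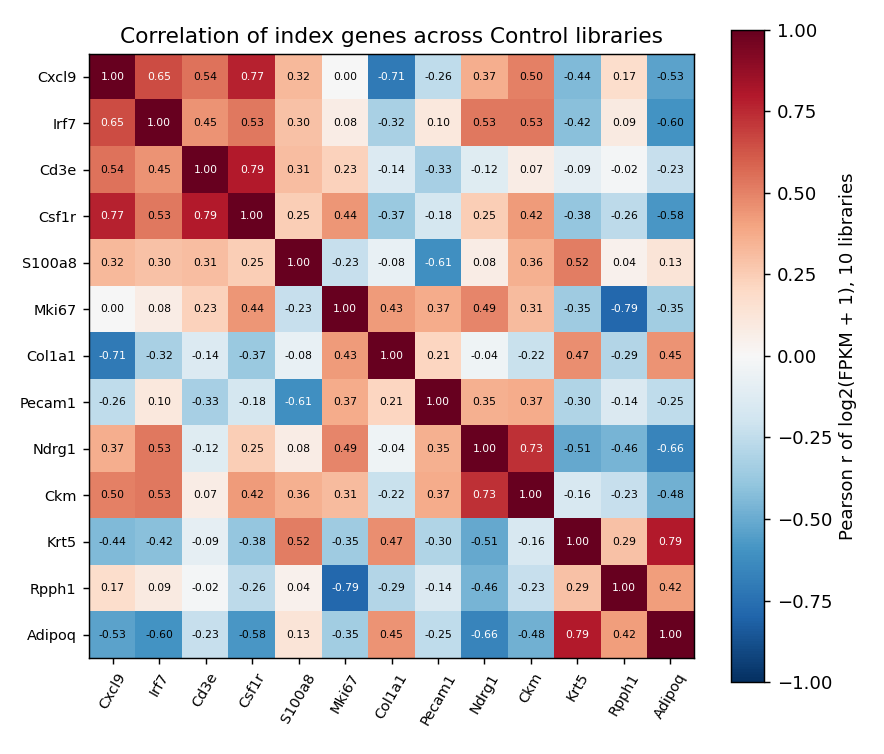
Pearson's r of log2(FPKM + 1) across the 10 Control libraries for each pair of the 12 index genes and Adipoq, from -1 (blue) to 1 (red). Adipoq and Krt5, Cd3e and Csf1r (each 0.79), and Mki67 and Rpph1 (-0.79) are the most strongly coloured pairs; none of the pairs passed after adjustment.

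None of the technical measures set against the 2 leading axes of the data tracked them past the threshold. Deviation by transcript length and the ribosomal protein mean, by which Control 1 stood apart, were not set against the axes. The second axis mainly set Control 1 apart, and there an r of 0.75 had an unadjusted permutation p of 0.0702. The first principal component had r of 0.61 with the Rpph1 and Rmrp share, 0.58 with the summed FPKM, 0.56 with the rows above 0 and -0.16 with relative depth, and the second had 0.63, 0.75, -0.13 and -0.16. The 8 adjusted p-values ran from 0.151 to 0.722 (two-sided permutation test), and Spearman's rho ran from -0.31 to 0.62, with unadjusted p from 0.0603 up. Without the 2 libraries farthest from the median of the measure, r ran from -0.35 to 0.50.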

How the data were processed

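RNA of subcutaneous MC38 tumours was measured in 20 libraries, of which the 10 titled Control were used. Per the labels' protocols, RNA came from a column kit and libraries from a stranded total RNA kit. The authors deposited FPKM per gene, and the submitters' processing notes name the build mm10. The aligner, the tool for counting and any scaling between libraries were not given in the sources used here. Gene types, coordinates and promoters came from RefSeq (GRCm38.p6, 23324 of 23402 rows matched) and transcript lengths from GENCODE M21 (96.9% of tested rows). Gene copies that share reads cannot be told apart.

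Values were analysed as log2(FPKM + 1), which understates changes of low genes. The 12826 rows with a mean of at least 0.5 FPKM were each regressed on an index gene (limma 3.58.1 under R 4.3.3, robust and trended moderation, two-sided, Benjamini-Hochberg, threshold 0.05). Fits and pair tests were tested on simulated data. Pairs were tested with 100000 permutations. Clusters used average linkage on 1 minus r at 0.4. Named genes were the 15 protein-coding and 8 other rows of highest mean, the 20 of largest SD, index genes, up to 5 called rows of smallest p per index, leading list members and cluster leaders. Genes outside this rule, the 20 protein-coding rows of largest SD, the 2 steady genes, the Adipoq fit and the mammary list were chosen after the values were seen. The members and lists were chosen with earlier results of these data known. Alternatives changed the pseudocount (0.1), the filter (none, 1), the scaling, a covariate, the moderation or the libraries used.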

Additional observations from a re-analysis of the deposited data

Results flagged for a closer look

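Single libraries that lay far from the other 9 were looked for with Dixon's ratio on log2(FPKM + 1), against its critical value for 10 samples, in 185 genes, those named in the text and the rows of highest mean or largest SD, and in 6 library measures. The critical value flags about 1 in 20 sets of independent normal values, and 33 were found here. Many of these genes were named for their values and all share the same libraries, so that rate is no baseline for the 33.

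Control 1 held 25 of these values. It had the highest Eef1a1 (5904 FPKM, next library 4940), Rps12 (4595, next 3216), Rpl41 (5033, next 3150), Lyz2 (1651, next 1154), Ndufb6 (213, next 141), Rpl38 (3202, next 2633), Tmsb4x (3304, next 2606), Gm9846 (3207, next 2342), Rps26 (2801, next 2262), Rpl32 (2920, next 2271), Snord17 (3226, next 1737), Rmrp (69007, next 39920), Snora74a (10375, next 5295) and Snord22 (5441, next 3260). It had the lowest Malat1 (619, next 967), Mki67 (27.7, next 46.1), Top2a (106, next 129), Cenpf (5.77, next 11), Aspm (7.33, next 10.9), Tpr (31.8, next 50.1) and Col6a3 (124, next 196). Snord32a was listed at 0 there (next 66.7). Its summed FPKM was 752782 (next 628655), its upper quartile 13.4 FPKM (next 13.8) and its mean of ribosomal protein genes 9.68 on the log2 scale (next 9.36).

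Control 3 held the highest Pgr, the progesterone receptor gene (2.94 FPKM, next 0.667), and the lowest Gzmc (17.7, next 86.1) and Xcl1 (9.57, next 22.1). Control 10 held the highest Arg1 (187, next 86.1), Nos2 (10.6, next 4.17) and Krtdap (4.45, next 1.38). Control 9 held Ddx3y at 0.0492 FPKM, listed at 0 elsewhere, and the globin gene Hbb-bs at 5.01, against at most 0.00396 elsewhere. The related globin gene Hbb-b1 was expressed in every library, and how reads were divided between these genes was not tested.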

How the results depend on the processing

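Counts of called rows depended on single libraries, and the cause was not tested unless stated. Without each library in turn the counts ran from 60 to 585 for Cxcl9 (lowest without Control 3, highest without Control 2), 0 to 3 for Irf7, 0 to 4 for Cd3e, 0 to 181 for Csf1r (0 without Control 2, 5 or 8), 0 to 2 for S100a8, 0 to 3134 for Mki67 (0 without Control 1), 0 to 2 for Col1a1, 0 to 1 for Pecam1, 0 to 1 for Ndrg1, 4 to 141 for Krt5, 0 to 2445 for Rpph1 (6 or fewer without Control 1, 4, 5, 6, 8, 9 or 10, 2445 without Control 2) and 174 to 582 for Adipoq. Pairs of index genes past the threshold ran from 0 to 1. Without the 2 libraries farthest from the index gene's median there were 0 calls for Cxcl9, Csf1r, S100a8, Mki67 and Krt5, 1 for Ndrg1, 24 for Rpph1 and 128 for Adipoq. Without Controls 1 and 3, chosen after seeing the data, there were 21 for Irf7, 5 for Cd3e, 0 for Mki67, Krt5 and Rpph1, and 112 for Adipoq. With Adipoq as a further term, also added later, there were 61 for Cxcl9, 2 for Rpph1 and 0 for Csf1r, S100a8 and Krt5.

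After scaling to 1 sum the counts were 1 for Irf7, 3 for Cd3e, 4042 for Csf1r, 6476 for Mki67, 3333 for Pecam1, 4106 for Ndrg1 and 4801 for Rpph1. With the share of Rpph1 and Rmrp as a further term they were 365 for Cxcl9, 3 for Cd3e, 157 for Csf1r, 0 for S100a8, 179 for Mki67, 11 for Krt5 and 230 for Adipoq, and with relative depth in its place 16 for Rpph1. Without a filter, which adds rows, they were 33 for Csf1r, 0 for S100a8, 75 for Ckm, 48 for Krt5 and 1 for Rpph1. A filter at 1 FPKM gave 9 for Krt5 and a pseudocount of 0.1 gave 12. Moderation without robust and trend gave 2 for Cd3e and 2 for Rpph1. Every other count stayed within 1.5 times. Ckm gave no value with a filter at 1 FPKM, without Control 10 or without its 2 farthest libraries, since its mean fell under the filter.

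Among genes named in the text, slopes on Mki67 changed sign for Lgals1 (0.01062 after scaling to 1 sum), Rpph1 (0.02822 with the composition term), Lyz2 (0.06175 without Controls 1 and 8, 0.02698 without Controls 1 and 3) and Malat1 (-0.09573 and -0.05895 in the same order). Leaving out 1 library at a time, the Lyz2 slope ran from -0.2441 to 0.01812 and the Malat1 slope from -0.04566 to 0.3132, the sign changing without Control 1. Among the other called list genes, r changed sign without the 2 farthest libraries for Itgb1 (0.83 to -0.056) and Egr1 (0.78 to -0.090) on Mki67 and for Klrc1 on Cxcl9 (0.85 to -0.20), and without Control 1 for Egr1 (-0.030). No paired analysis was possible because the libraries form 1 group. The number of libraries limits what can be called, and without read totals no counting error can be given.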

Other observations

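Near-identical gene copies gave values that moved against each other. Amd1, which encodes the enzyme that decarboxylates S-adenosylmethionine for polyamine synthesis, was at 0.0175 to 0.0250 FPKM in Controls 3, 6, 7 and 10 and from 5.94 to 11.8 in the other 6 libraries. Its copy Amd2 was at 22.4 to 29.7 in those 4 libraries and at 11.8 to 19.9 in the other 6. The sum of the pair ran from 22.1 to 29.8. These genes were chosen after their values were seen, and how reads were divided between copies was not tested.

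Blood RNA was present at low level. The globin gene Hbb-b1 ran from 16.3 FPKM in Control 8 to 77.3 in Control 3, with Control 1 at 73.5, and Hba-a1 from 5.20 to 21.5. Hba-a1 was called positive with Adipoq, with a slope of 0.57 ± 0.09 (limma, adjusted p = 0.00304). It was called in 17 of 19 alternatives, and the adjusted p reached 0.149 without Controls 8 and 3.

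The lymphoid chemokine gene Ccl21a, also chosen after its values were seen, was at 20 FPKM in Control 8, 14.3 in Control 4 and 13.3 in Control 5. It was at 4.56 in Control 1 and 4.54 in Control 6, and at 0.330 or lower in the remaining 5 libraries.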
